A study of Homo sapiens with 9 samples.

Results

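The chaperonins are the barrel-shaped chaperones of the cell, and the probe sets of 10 of their genes were followed in Jurkat cells, a T cell line first taken from a human leukaemia. The members were all probe sets of the array whose platform annotation gave the symbol of a subunit of the cytosolic chaperonin TRiC (TCP1, CCT2, CCT3, CCT4, CCT5, CCT6A, CCT7 and CCT8) or of the mitochondrial pair HSPD1 and HSPE1. They were 21 of the 54675 probe sets on the array. Of these, 18 carried 1 gene symbol and stood for 9 of the 10 genes. The other 3 were listed for TCP1 together with SNORA29, a small nucleolar RNA that lies inside TCP1 in the RefSeq annotation, so no probe set stood for TCP1 alone.

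RNA was measured on 9 arrays, 3 in each of 3 groups, all taken 4 h after exposure. The nsEP exposed cells received 100 electrical pulses of 10 ns at 150 kV/cm (nanosecond electrical pulses). The heat shocked cells, the stress control of the study, were warmed in a water bath in the same kind of cuvette. The sham exposed cells were handled like the nsEP exposed cells, with no pulse delivered. The study describes no separate sham for the water bath. All 3 groups were the same line, and the labels call the 3 samples of a group biological replicates. The study's own viability assay found few living Jurkat cells after nsEP, and in bulk RNA a change in which cells contributed and a change in RNA per cell cannot be told apart.

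TRiC, also called CCT, is a pair of stacked rings built from related subunits. It encloses newly made proteins such as actin and tubulin while they fold, drawing on ATP, and prefoldin hands many of these clients to it. In the mitochondrial matrix, HSPD1 (HSP60) forms the folding chamber and HSPE1 (HSP10) is its lid. In human cells HSPD1 and HSPE1 lie head to head and are known targets of heat shock factor 1, the transcription factor that binds repeated heat shock elements.

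The start regions of 3 genes are shown, chosen after their results were seen. After heat shock 3 of the 5 HSPD1 probe sets and 2 of the 3 listed for TCP1 and SNORA29 were called higher, as were 1.81% of all tested probe sets. HSPE1, the neighbour of HSPD1, did not pass, nor did the remaining pair of HSPD1 probe sets. When arrays were scaled to added control RNAs, HSPD1 241716_at alone kept its call. The sequences are from RefSeq (GRCh38.p14) and run 5′ to 3′ on the strand of the gene. Capitals mark the letters of a heat shock element, searched on both strands as GAANNTTC or TTCNNGAA, with overlapping matches joined.
HSPD1, chr2:197500031-197500090, minus strand: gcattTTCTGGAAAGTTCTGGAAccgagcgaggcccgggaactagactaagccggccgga
HSPE1, chr2:197500129-197500188, plus strand: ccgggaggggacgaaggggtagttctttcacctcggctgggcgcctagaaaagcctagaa
TCP1, chr6:159789793-159789852, minus strand: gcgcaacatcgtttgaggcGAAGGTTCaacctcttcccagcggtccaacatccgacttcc
The capitals of HSPD1 were an unbroken run of 18 bases, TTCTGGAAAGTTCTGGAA, which fitted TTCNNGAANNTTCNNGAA. This pattern or GAANNTTCNNGAANNTTC was found in 12 of the 35116 windows of 300 bases around the starts of human genes (0.0342%). They ended 294 bases before the start of HSPE1 and lay 189 bases inside HSPD1 counted from the more upstream of its 2 starts, which was 105 bases from the start of HSPE1. The window of HSPE1 reached 250 bases before its start and held no match. For 9 of the 10 chaperonin genes 12 windows were at hand. Besides HSPD1, a window each of TCP1, CCT2 and CCT4 held the short pattern GAANNTTC or TTCNNGAA. It was thus present in 4 of these 12 windows, against 13.5% of all windows. Counted by gene it was present in 4 of the 9, against 4417 of all 27305 genes with a window. No probe set of CCT2 or CCT4 passed the test after heat shock. These matches describe letters in a window and do not show that a factor bound there. Their part in the ratios was not tested.

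The calls after heat shock fell on HSPD1 and on the probe sets listed for TCP1. Of the 18 single-gene probe sets, 3 rose, all 3 of them of HSPD1, and none fell, where 1.81% of all 54613 tested probe sets rose and 2.36% fell at an adjusted p below 0.05 (limma, Benjamini-Hochberg). The remaining pair of HSPD1 probe sets, the 12 probe sets of CCT2 to CCT8 and the single probe set of HSPE1 did not pass. Of the 3 probe sets listed for TCP1 and SNORA29, 2 rose. When arrays were scaled to added control RNAs, only 241716_at of these 5 calls was kept.

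Values are MAS5 signals on the log2 scale, and ratios are differences of log2 means with the SE of the fit. Probe set 241716_at of HSPD1 read 11.19, 10.55 and 11.38 on the heat shock arrays, against 7.08, 5.84 and 6.24 on the sham arrays. The lowest heat shock array thus lay well above the highest sham array. Its log2 ratio was 4.65 (SE 0.33, adjusted p = 8.58e-06), a 25.2-fold rise. On the sham arrays it averaged 6.39, close to the median of all probe sets at 6.33, so the size of the fold rests on a dim starting value.

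Probe set 243372_at of HSPD1 read 10.09, 9.94 and 10.22 after heat shock, against 8.80, 9.18 and 9.14 in sham. The 3 heat shock values lay close together and apart from the sham values, and the log2 ratio was 1.04 (SE 0.21, adjusted p = 0.0161). The call was lost without heat shock replicate 1, without heat shock replicate 3 and without sham replicate 1, with adjusted p up to 0.0714. It was also lost with each array centred on its median (0.73, adjusted p = 0.0517), without a variance trend in the fit (adjusted p = 0.110) and with arrays scaled to poly-A spike-ins, bacterial RNAs added to each sample as controls, where the ratio was 0.012 (adjusted p = 0.988).

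Probe set 243845_at of HSPD1 read 6.51, 6.71 and 6.58 after heat shock, against 4.96, 3.87 and 4.40 in sham. The groups did not overlap, and the log2 ratio was 2.19 (SE 0.48, adjusted p = 0.0238). All sham values and the sham mean of 4.41 lay under the median of all probe sets. With 32 signal units added before the log, which damps the spread of dim probe sets, the ratio was 1.26. This call was lost without any one of the 3 heat shock arrays and without sham replicate 2 or sham replicate 3, with adjusted p up to 0.0900, and with spike-in scaling, where the ratio was 1.16 (adjusted p = 0.303).

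The brightest HSPD1 probe set, 200807_s_at, read 15.52, 15.47 and 15.48 after heat shock, against 14.98, 14.73 and 15.30 in sham. The heat shock arrays were all higher than the sham arrays, but the ratio of 0.49 (95% interval -0.01 to 0.99, adjusted p = 0.286) did not pass. Over all 109 probe sets with a mean log2 signal between 15 and 16, the median ratio after heat shock was 0.47 and the 10th and 90th percentiles were 0.41 and 0.54, and this probe set lay inside that range. Probe set 200806_s_at, the other bright one, read 14.41, 14.41 and 14.71 after heat shock, against 13.71, 13.74 and 14.25 in sham. Its ratio was 0.61 (95% interval 0.19 to 1.02, adjusted p = 0.105), and it too was higher on every heat shock array. This lay above the 90th percentile of 0.54 for the 338 probe sets with a mean signal between 14 and 15. Under spike-in scaling the ratios of 200806_s_at and 200807_s_at turned negative. The 5 probe sets of HSPD1 thus gave heat shock ratios between 0.49 and 4.65, and those with the larger ratios were the 3 dimmer ones. Where their probes lie in HSPD1 was not analysed here.

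**Figure D1:**
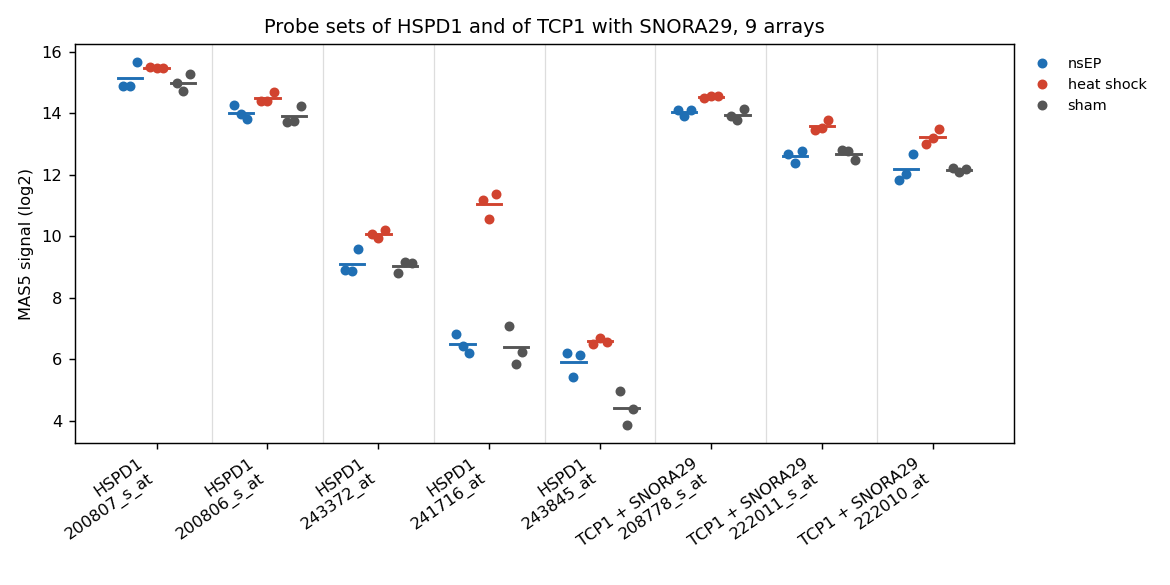
MAS5 signal (log2, vertical axis) on each array for the 5 probe sets of HSPD1 and the 3 listed for TCP1 with SNORA29. Points are arrays, short lines are means of 3 arrays, and each probe set shows nsEP, heat shock and sham from left to right. The heat shock points of 241716_at lie between 10.55 and 11.38, above every nsEP and sham point of that probe set.

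HSPE1, the lid of the HSPD1 chamber, had 1 probe set, 205133_s_at. It read 14.23, 13.63 and 14.23 after heat shock, against 13.99, 13.84 and 14.15 in sham. Heat shock replicate 2 was the lowest of the 6 arrays and the other pair the highest. The ratio was 0.04 (95% interval -0.42 to 0.49, adjusted p = 0.948) and turned negative under spike-in scaling. Its mean signal of 14.00 lay at the border of 2 signal ranges. The ratio was below the 10th percentile of 0.16 for the 338 probe sets between 14 and 15. It was inside the 10th to 90th percentiles of -0.20 to 0.50 for the 609 probe sets between 13 and 14. RefSeq gives HSPE1 and the readthrough gene HSPE1-MOB4 the same start, and the signals of the 2 were not separated here.

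The 3 probe sets listed for TCP1 and SNORA29 all lay higher after heat shock on every array. So did 16.6% of all probe sets and 16.8% of those in the brightest quartile, where these 3 lay. TCP1 is the alpha subunit after which the complex is named, and the values cannot be assigned to it alone. Probe set 222011_s_at read 13.46, 13.54 and 13.80 after heat shock, against 12.81, 12.77 and 12.47 in sham. The groups were clearly apart, with a ratio of 0.91 (SE 0.17, adjusted p = 0.00798), and the call held when any single array was left out. Probe set 222010_at read 13.00, 13.20 and 13.48 after heat shock, against 12.22, 12.09 and 12.18 in sham. The sham arrays lay close together and far below, and the ratio was 1.06 (SE 0.21, adjusted p = 0.0127). This call was lost without heat shock replicate 3 (adjusted p = 0.0655) and without sham replicate 2 (adjusted p = 0.0566). Both ratios lay above the 90th percentile of 0.44 for the 1238 probe sets with a mean signal between 12 and 13.

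The brightest of the 3, 208778_s_at, read 14.49, 14.57 and 14.58 after heat shock, against 13.93, 13.78 and 14.14 in sham. It was higher on every heat shock array, by 0.59 (95% interval 0.26 to 0.93), and missed the threshold with an adjusted p of 0.0503. This ratio lay above the 90th percentile of 0.54 for the 338 probe sets with a mean signal between 14 and 15. Higher on every heat shock array, however, were 65.9% of the 715 brightest probe sets, of which 208778_s_at was 1. Spike-in scaling turned the sign of 208778_s_at and 222011_s_at and left 222010_at at 0.033 (adjusted p = 0.965), so that the calls of 222011_s_at and 222010_at were lost, as they were without a variance trend. Of the 3 called HSPD1 probe sets, 243372_at and 243845_at also lost their calls under that scaling, and 241716_at, at 3.62, kept its call. The spike-ins averaged 9.89 to 11.16 on nsEP arrays, 11.07 to 11.69 on heat shock arrays and 9.74 to 10.74 on sham arrays, a wide range within each group.

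**Figure D2:**
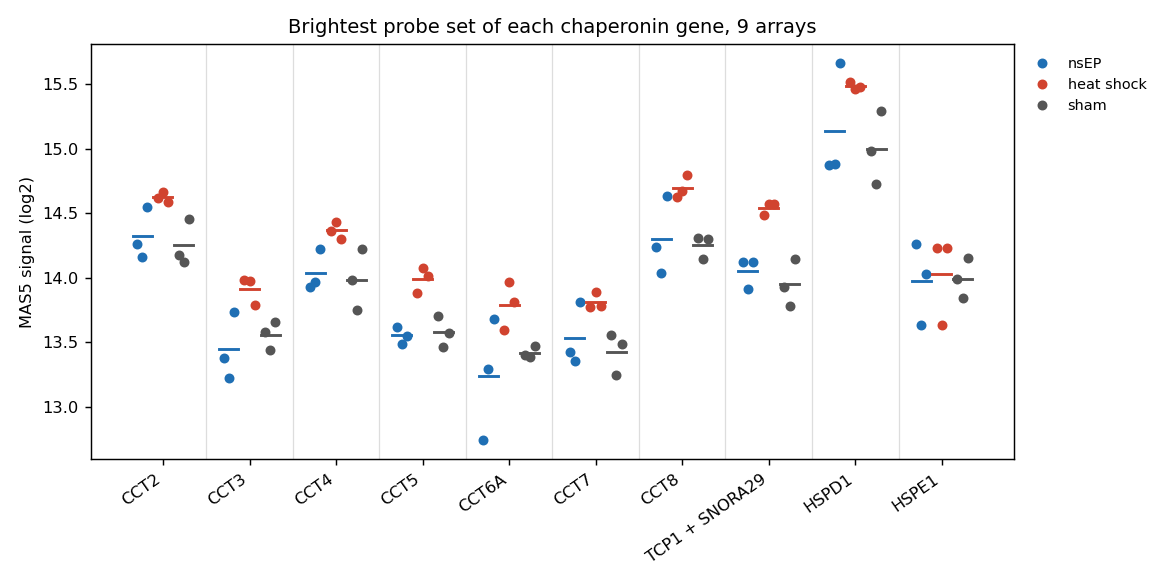
MAS5 signal (log2, vertical axis) of the brightest probe set of each chaperonin gene on 9 arrays, with nsEP, heat shock and sham from left to right. Points are arrays and short lines are means of 3. The heat shock points of CCT2 to CCT8 lie above the sham points, a direction that turned under spike-in scaling, and those of HSPE1 do not.

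The other 7 TRiC genes had small heat shock ratios, close to each other. Their brightest probe sets had ratios between 0.36 and 0.45 with a median of 0.38, and all 7 turned negative, with a median of -0.65, under scaling to the poly-A spike-ins. None passed the test (adjusted p 0.141 to 0.380). In each of the 7 the 3 heat shock arrays lay above the 3 sham arrays, where 16.6% of all probe sets did so. Among the 715 probe sets at least as bright as the dimmest of the 7, however, 65.9% did so, and the median ratio of those 715 was 0.39.

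CCT8, the theta subunit, had the largest of these ratios. Its probe set 200873_s_at read 14.63, 14.67 and 14.80 after heat shock, against 14.31, 14.15 and 14.30 in sham. The gap between the groups was wider than the spread within either, at a ratio of 0.45 (95% interval 0.07 to 0.83, adjusted p = 0.193). CCT5, the epsilon subunit, read 13.88, 14.08 and 14.01 on 208696_at after heat shock, against 13.70, 13.46 and 13.57 in sham. Its ratio of 0.41 (95% interval 0.10 to 0.72, adjusted p = 0.141) had the smallest SE of the 7, 0.14.

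CCT2, the beta subunit, read 14.62, 14.67 and 14.59 on 201947_s_at after heat shock, against 14.18, 14.13 and 14.46 in sham. Sham replicate 3 came close to the heat shock arrays, and the ratio was 0.37 (adjusted p = 0.252). CCT4, the delta subunit, read 14.37, 14.44 and 14.30 on 200877_at after heat shock, against 13.99, 13.75 and 14.22 in sham. Here too sham replicate 3 was the highest sham array, and the ratio was 0.38 (adjusted p = 0.243).

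CCT7, the eta subunit, read 13.77, 13.89 and 13.78 on 200812_at after heat shock, against 13.56, 13.25 and 13.49 in sham. The groups were apart by a ratio of 0.38 (adjusted p = 0.234). CCT3, the gamma subunit, read 13.99, 13.98 and 13.79 on 200910_at after heat shock, against 13.58, 13.44 and 13.66 in sham. The groups came close without overlapping, and the ratio was 0.36 (adjusted p = 0.274). CCT6A, the zeta subunit, read 13.60, 13.97 and 13.81 on 201326_at after heat shock, against 13.40, 13.39 and 13.47 in sham. Its ratio of 0.37 (95% interval -0.08 to 0.83, adjusted p = 0.380) had the widest SE of the 7, 0.21.

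The further probe sets of these subunits spread more. Probe set 201946_s_at of CCT2 had a ratio of 0.58 (95% interval -0.00 to 1.17) and its heat shock arrays did not overlap sham. For CCT4 227171_at (0.54), CCT5 229068_at (0.03), CCT6A 201327_s_at (0.18) and CCT8 210436_at (0.56) the groups overlapped and no call was made. The 2 probe sets of CCT5 thus gave 0.41 and 0.03 for the same gene. The ratios of CCT2 201946_s_at and CCT4 227171_at lay above the 90th percentiles at their signal levels, 0.44 and 0.43. Both ratios turned negative under spike-in scaling.

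**Figure D3:**
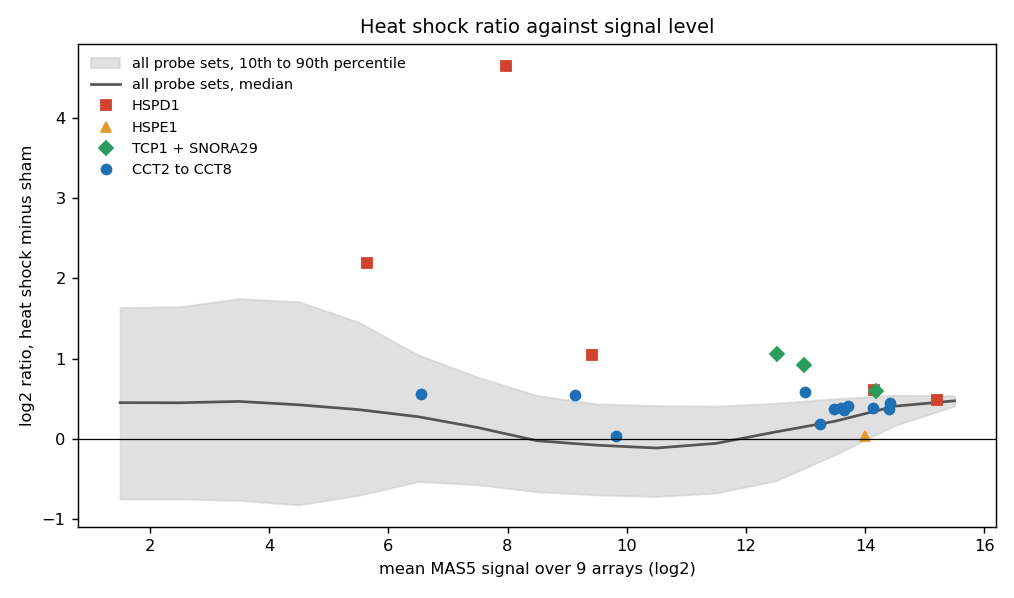
Log2 ratio of heat shock over sham (vertical axis) against the mean MAS5 signal over 9 arrays (log2, horizontal axis) for the 21 chaperonin probe sets. The grey line and band give the median and the 10th to 90th percentiles of all tested probe sets in steps of 1 log2 unit. The brightest probe sets of the 7 genes CCT2 to CCT8 lie in the band, positive before and negative after spike-in scaling. CCT2 201946_s_at (0.58) and CCT4 227171_at (0.54), not called, lie above it, and both turned negative under that scaling. The 3 called HSPD1 probe sets and the 2 called ones of TCP1 with SNORA29 lie above it too. Under that scaling 222011_s_at was negative, 243372_at and 222010_at were at 0.012 and 0.033, and only 241716_at was still called. HSPD1 200806_s_at (0.61) and 208778_s_at (0.59), not called, also lie above the band, and both turned negative under that scaling.

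After nsEP none of the 18 single-gene probe sets and none of the 3 listed for TCP1 and SNORA29 passed the test, where 0.0586% of all probe sets (28 higher and 4 lower) did. The same sham arrays served as controls here. At an unadjusted p under 0.05, 1 of the 18 was higher, against 3.06% of all probe sets higher and 3.93% lower, and the methods' t-test with Benjamini-Hochberg adjustment made 0 calls over all probe sets. The 7 TRiC probe sets had ratios between -0.18 and 0.10 with a median of 0.05, and every one of them was at or below -0.02 without nsEP replicate 3.

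CCT8 read 14.24, 14.04 and 14.63 on 200873_s_at after nsEP, against 14.31, 14.15 and 14.30 in sham. Replicate 3 lay above the sham arrays and the other nsEP arrays did not, with a ratio of 0.05 (95% interval -0.33 to 0.43). CCT6A read 12.74, 13.29 and 13.68 on 201326_at after nsEP, against 13.40, 13.39 and 13.47 in sham. The nsEP arrays reached both below and above sham, and the ratio was -0.18 (95% interval -0.64 to 0.27). CCT5 read 13.62, 13.49 and 13.55 on 208696_at after nsEP, against 13.70, 13.46 and 13.57 in sham. The groups overlapped and were both narrow, and the interval of the ratio of -0.03 was -0.33 to 0.28.

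The remaining TRiC subunits overlapped sham as well. CCT2 201947_s_at read 14.27, 14.17 and 14.55 after nsEP, CCT3 200910_at read 13.38, 13.23 and 13.74, CCT4 200877_at read 13.93, 13.97 and 14.22, and CCT7 200812_at read 13.43, 13.35 and 13.82. In each of the 4 nsEP replicate 3 was the highest nsEP array. Their ratios to sham were 0.07, -0.11, 0.05 and 0.10. The 95% intervals of these 4 reached no further than -0.47 below and 0.46 above.

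Of the mitochondrial pair, HSPD1 read 14.87, 14.88 and 15.67 on 200807_s_at after nsEP, against 14.98, 14.73 and 15.30 in sham. Replicate 3 again stood highest, and the ratio was 0.14 (95% interval -0.36 to 0.64). The HSPD1 probe set with the largest rise after heat shock, 241716_at, read 6.81, 6.44 and 6.21 after nsEP, against 7.08, 5.84 and 6.24 in sham. Every nsEP value fell inside the sham range, with a ratio of 0.10 (95% interval -0.63 to 0.83).

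The dimmest HSPD1 probe set, 243845_at, was the 1 member whose nsEP arrays did not overlap sham. It read 6.20, 5.42 and 6.13 after nsEP, against 4.96, 3.87 and 4.40 in sham. All 6 values lay under the median of all probe sets. The ratio of 1.51 (SE 0.48) had an adjusted p of 0.509, and 5.07% of all probe sets were higher in this way without overlap. HSPE1 read 14.26, 13.64 and 14.03 after nsEP, against 13.99, 13.84 and 14.15 in sham. The sham arrays lay inside the nsEP range, and the ratio was -0.02 (95% interval -0.47 to 0.44).

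**Figure D4:**
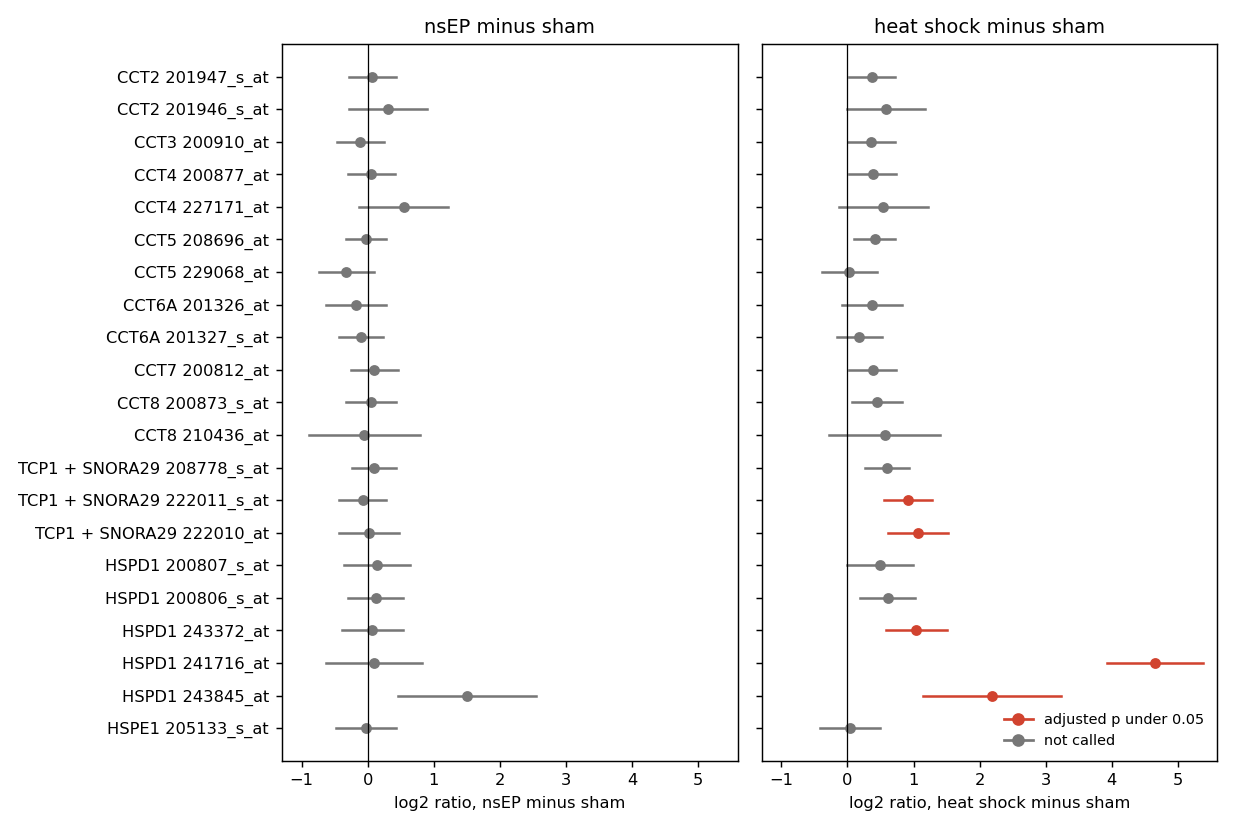
Log2 ratio (horizontal axis) of nsEP over sham (left) and of heat shock over sham (right) for the 21 chaperonin probe sets, with 95% intervals from the fit. Red marks an adjusted p under 0.05. No interval on the left is red, and on the right the red ones are 3 of HSPD1 and 2 of TCP1 with SNORA29, of which all but HSPD1 241716_at lost their calls under spike-in scaling and 222011_s_at turned to -0.12.

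Set directly against heat shock, nsEP left 2 of the 18 single-gene probe sets lower and none higher, where 2.65% of all probe sets were lower and 2.31% higher. HSPD1 241716_at read 6.81, 6.44 and 6.21 after nsEP, against 11.19, 10.55 and 11.38 after heat shock. The ratio was -4.55 (SE 0.33, adjusted p = 1.37e-05). HSPD1 243372_at read 8.89, 8.86 and 9.58 after nsEP, against 10.09, 9.94 and 10.22 after heat shock. Replicate 3 was nearest to the heat shock arrays without reaching them, and the ratio was -0.97 (SE 0.21, adjusted p = 0.0205). That call was lost without nsEP replicate 1 or nsEP replicate 2 and without heat shock replicate 1 or heat shock replicate 3, with adjusted p up to 0.0932. It was also lost with centring (adjusted p = 0.0830), without a variance trend (adjusted p = 0.112) and with spike-in scaling, where the ratio was -0.020.

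Of the probe sets listed for TCP1 and SNORA29, 2 of 3 were lower after nsEP than after heat shock. Probe set 222011_s_at read 12.67, 12.38 and 12.79 after nsEP, against 13.46, 13.54 and 13.80 after heat shock, a ratio of -0.99 (SE 0.17, adjusted p = 0.00438). Probe set 222010_at read 11.82, 12.04 and 12.68 after nsEP, against 13.00, 13.20 and 13.48 after heat shock, a ratio of -1.05 (SE 0.21, adjusted p = 0.0122), lost without nsEP replicate 2 or heat shock replicate 3. In neither did the groups overlap. With spike-in scaling the ratios were -0.038 for 222011_s_at and -0.094 for 222010_at, and both calls were lost there and without a variance trend. The 7 TRiC probe sets had ratios of -0.55 to -0.28, against 0.40 to 0.67 with spike-in scaling and -0.23 to 0.041 with centring, and none passed. In 4 of the 7 the nsEP arrays all lay below the heat shock arrays, against 15.1% of all probe sets and 19.2% of the 715 bright ones. Without nsEP replicate 3, 5 of the 18 probe sets were lower, where 3.85% of all probe sets were, the added ones being CCT8 200873_s_at, CCT3 200910_at and CCT6A 201326_at.

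TRiC was also set against the mitochondrial pair on each array, taking each gene relative to its sham mean. The mean of the 7 TRiC genes was -0.13, -0.14 and 0.24 on the nsEP arrays, and 0.34, 0.46 and 0.37 on the heat shock arrays. HSPD1 on 200807_s_at was -0.13, -0.12 and 0.67 on the nsEP arrays, and 0.52, 0.47 and 0.48 on the heat shock arrays. HSPE1 was 0.27, -0.36 and 0.04 on the nsEP arrays, and 0.24, -0.36 and 0.24 on the heat shock arrays. HSPD1 and TRiC were thus both high on all heat shock arrays and on nsEP replicate 3. Their heat shock ratios were near those of equally bright probe sets. The median ratio was 0.47 for probe sets between 15 and 16 and 0.39 for the 715 bright ones. With spike-in scaling the heat shock ratios of HSPD1 200807_s_at, HSPE1 and all 7 TRiC probe sets were negative. HSPE1 was lowest on the second replicate of each of the groups, at -0.15 in sham. On sham replicate 2 the TRiC mean (-0.13) and HSPD1 (-0.28) were also the lowest of the sham arrays.

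The TRiC mean minus the mean of HSPD1 and HSPE1 was -0.07 ± 0.15 after nsEP, 0.13 ± 0.24 after heat shock and 0.00 ± 0.11 in sham (SD, n = 3 each). The differences between group means were smaller than the SD of the heat shock arrays. Heat shock differed from sham by more than the sham SD, and from nsEP by more than the nsEP SD. No test was made on this score. On heat shock replicate 2 it was 0.40, against -0.04 and 0.01 on the other heat shock arrays. With the median over the probe sets of a gene in place of its brightest one, the heat shock difference was -0.16.

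**Figure D5:**
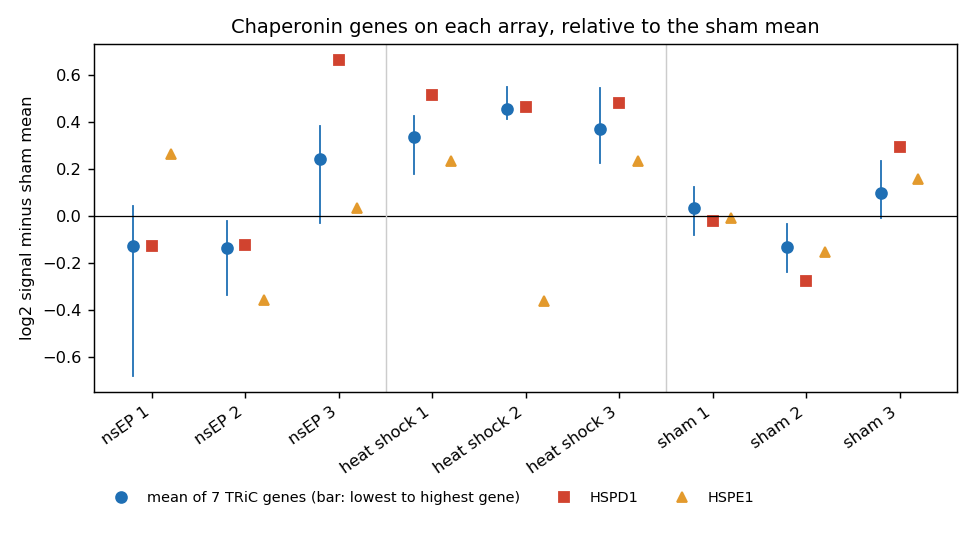
Log2 signal minus the sham mean (vertical axis) on each of 9 arrays, for the mean of 7 TRiC genes (circles, with a bar from the lowest to the highest gene), HSPD1 (squares) and HSPE1 (triangles). TRiC lies between 0.34 and 0.46 on the heat shock arrays, negative under spike-in scaling, and HSPE1 at -0.36 on heat shock replicate 2.

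The genes that work with the chaperonins were counted from lists drawn up for this purpose, each gene by its brightest single-gene probe set. After nsEP no gene of any list passed, where 0.0506% of all 19775 genes rose and 0.0101% fell. After heat shock 1.72% of all genes rose and 3.99% fell, with a median ratio of 0.14. The lists were not counted under spike-in scaling, where 157 of 54613 probe sets rose and 3605 fell after heat shock. Of the prefoldin subunits and TRiC regulators, 0 of 8 passed, with a median of 0.23. The lowest p in that list belonged to PFDN5, at 0.47 (adjusted p = 0.120).

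Of 19 clients of TRiC, 1 rose after heat shock and none fell, with a median of 0.32. This was TUBB2A, a beta tubulin, which read 12.45, 12.30 and 12.40 after heat shock, against 11.61, 10.99 and 10.95 in sham, a ratio of 1.20 (SE 0.20, adjusted p = 0.00508). ACTB, the main actin client, had a ratio of 0.60 (adjusted p = 0.177). None of the 6 tubulin cofactors, which take tubulin over from TRiC, passed, and their median was 0.17.

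Of 5 chaperonin-like genes, BBS12 fell after heat shock and none rose, with a median of 0.28. It belongs to the proteins that help assemble the BBSome, a coat complex of the cilium, and read 6.22, 6.87 and 6.42 after heat shock, against 8.02, 8.09 and 7.88 in sham. The groups were far apart, with a ratio of -1.50 (SE 0.26, adjusted p = 0.00550).

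Of 19 genes of protein import and folding in mitochondria, GRPEL2 fell and none rose. GRPEL2, a nucleotide exchange factor for the mitochondrial HSP70, read 10.88, 10.42 and 10.71 after heat shock, against 11.50, 11.76 and 11.84 in sham, a ratio of -1.03 (SE 0.16, adjusted p = 0.00321). HSPA9, that mitochondrial HSP70 itself, had a ratio of 0.07 (adjusted p = 0.848). The median of the list was 0.16.

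A list of heat shock genes, drawn up as cytosolic, was counted on the same arrays for scale. Of 15 measured, 12 rose after heat shock and none fell, with a median ratio of 1.98. They included HSPA6, an inducible HSP70, at 8.77 and the small heat shock protein CRYAB at 5.94. SERPINH1, a collagen chaperone of the endoplasmic reticulum and so not cytosolic, was at 5.41. HSPA1L, another HSP70, was at 5.11. Each of these ratios was larger than any chaperonin ratio. None of 3 measured heat shock factor genes and regulators passed, with a median of 0.15, and HSF1 itself had a ratio of 0.08. HSPA1A, HSPA1B and HSPA8 had no single-gene probe set and were not counted.

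Facts of the arrays bear on these ratios. The trimmed mean signal was 500.1 on every array, whereas the median log2 signal was 6.25 to 6.43 on nsEP, 6.65 to 6.72 on heat shock and 6.32 to 6.42 on sham arrays. The median ratio of all probe sets after heat shock was 0.18, from 0.45 in the dimmest quartile to -0.03 in the brightest. Centring each array on its median brought the TRiC median after heat shock to 0.076, and quantile normalization to 0.092. nsEP replicate 3 stood apart at -172.6 on the second principal component, against -30.6 to 62.6 for the other 8 arrays, and its part in the chaperonin values was tested only by leaving it out. All 12 T cell markers lay in the brightest quartile, while 1 of 5 B cell markers and 0 of 7 myeloid markers did. The log2 of the summed T cell marker signal was 16.1 to 16.6 on nsEP, 16.0 to 16.4 on heat shock and 16.1 to 16.2 on sham arrays, and that of the myeloid markers was 8.50 to 8.98 on nsEP, 9.27 to 9.65 on heat shock and 8.52 to 8.77 on sham arrays. After heat shock 3.99% of all genes fell and 1.72% rose, and 7.68% of the probe sets in the brightest quartile fell. Of the 12 T cell markers 3 fell, namely TRAT1 (-2.16), CD2 (-1.79) and CD28 (-1.01), and none rose. Of the 7 myeloid markers 1 rose, CD14 by 4.78, and none fell, with ratios down to -1.50 and a median of 0.50. None of the 5 B cell markers passed. The part of these markers in the chaperonin ratios was not tested.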

How the data were processed

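RNA of 9 Jurkat samples was hybridised by the authors to Affymetrix HG-U133 Plus 2.0 arrays. The values used were the deposited log2 signals, made with MAS5 per the submitters' processing notes, with about the same trimmed mean on every array. MAS5 reads each probe set on 1 array at a time, and its values are noisy for dim probe sets. Genes were named from the platform annotation: 41091 probe sets had 1 symbol, 1801 several and 11721 none, and 62 control probe sets were left out. A gene stands for its brightest single-symbol probe set. Because TCP1 shares its probe sets with SNORA29, the TRiC mean held 7 genes in place of the 8 planned.

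All 9 arrays were fitted with 1 mean per group in limma 3.58.1 (R 4.3.3) with a variance trend. Two-sided p-values were adjusted over 54613 probe sets and called at 0.05. Arrays have no depth, and 3 arrays a group limit the precision. An exact permutation test of 3 against 3 cannot go below p = 0.1, so none was made for single probe sets. Within groups arrays correlated at 0.916 to 0.939, and no 2 arrays were identical. The fit was tested on simulated data. Tables and plots were made with Python 3.11.15, pandas 2.3.3, scipy 1.17.1 and matplotlib 3.10.9.

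The rule for named genes took every chaperonin probe set, array values for the brightest of each gene and for any called, and from each list up to 4 called genes or up to 2 with the smallest p. ACTB, HSPA9, HSF1, CD14, TRAT1, CD2 and CD28 were named outside it after their values were seen. The members and lists were chosen with earlier results of these data known. Alternatives were a fit of 6 arrays, a replicate block, 32 units added before the log, quantile normalization, median centring, poly-A scaling, a filter on dim probe sets, no variance trend, array weights, the methods' t-test and leaving out each array. Nothing but the word biological in the labels says that replicates were separate cultures, so p-values may measure technical spread.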

Additional observations from a re-analysis of the deposited data

How the results depend on the processing

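HSPD1 241716_at was called higher after heat shock and lower in nsEP than in heat shock in every setting except the methods' t-test (adjusted p = 0.0554 and 0.0516). With scaling to the poly-A spike-ins 208778_s_at turned to -0.44 and 222011_s_at to -0.12 after heat shock, and 208778_s_at to 0.46 for nsEP against heat shock. The TRiC median after heat shock was then -0.65, against 0.092 with quantile normalization and 0.076 with centring. Of the 18 probe sets, the 3 calls after heat shock became 1 with spike-in scaling and 0 with the t-test, and the 2 for nsEP against heat shock became 1 with centring, with spike-in scaling and without a variance trend and 0 with the t-test. Of the 3 of TCP1 and SNORA29, the 2 calls in each comparison became 0 in spike-in scaling, without a trend and in the t-test. At the thresholds of the methods (unadjusted p of at most 0.05 and a log2 ratio of at least 2 in size) that test passed 2 of the 18 after heat shock, 1 for nsEP against heat shock and 0 after nsEP, and over all probe sets 215 higher and 206 lower after nsEP and 1003 higher and 158 lower after heat shock.

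Leaving out 1 array gave 1 to 2 calls of 18 after heat shock, 1 to 5 for nsEP against heat shock and 0 after nsEP, and 1 to 2 of the 3 of TCP1 and SNORA29 after heat shock and likewise for nsEP against heat shock. The TRiC median was 0.31 to 0.41 after heat shock and -0.06 to 0.09 after nsEP. The TRiC mean minus HSPD1 and HSPE1 was -0.01 to 0.21 after heat shock and -0.15 to -0.00 after nsEP, and -0.16 after heat shock with the median over the probe sets of a gene. Adding 208778_s_at to the TRiC mean, an alternative chosen after seeing the data, gave 0.15 after heat shock and -0.053 after nsEP.

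Over all probe sets, the 32 calls after nsEP became 14 with 6 arrays, 12 with spike-in scaling, 61 without dim probe sets, 7 without a trend, 52 with array weights, 0 with the t-test and 15 to 36 without 1 array. The 2276 after heat shock (987 higher, 1289 lower) became 4571 with centring (714 higher, 3857 lower), 3762 with spike-in scaling (157 higher, 3605 lower), 837 without a trend (558 higher, 279 lower), 377 with the t-test and 1130 to 1421 without 1 array. The 2707 for nsEP against heat shock (1261 higher, 1446 lower) became 4792 with centring (3819 higher, 973 lower), 1920 with spike-in scaling (1781 higher, 139 lower), 1100 without a trend, 124 with the t-test and 1343 to 4018 without 1 array.

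The main fit did not pair arrays by replicate number. Same-numbered arrays deviated together with r from -0.14 to 0.15, and differently numbered ones with r from -0.19 to 0.16. With 3 arrays a group these values cannot decide whether same-numbered arrays shared a culture or a batch. The replicate block gave 31, 2268 and 2544 calls and changed 1 chaperonin call, 208778_s_at after heat shock (adjusted p = 0.0455).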

Other observations

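The genes whose brightest probe set followed the chaperonins most closely over the 9 arrays were listed among 12230 genes whose mean signal reached the probe set median. Nearest to the mean of HSPD1 and HSPE1 were OTUD7B (Pearson r = 0.971), POLR2L (0.962), OGFOD3 (0.960), ERH (0.950) and SNRPD3 (0.946). Nearest to the TRiC mean were COLCA1 (0.985), IMPDH2 (0.982), RPL23A (0.982), EZH2 (0.980) and SLC9A2 (0.980). These are the highest of many correlations over 9 arrays that share 3 groups and 1 scaling, and they are given as a description. IMPDH2, the enzyme of guanine nucleotide synthesis, averaged 13.56 after nsEP, 14.02 after heat shock and 13.50 in sham.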
